A study of Mus musculus with 10 samples.

Results

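The transcripts described here come from 7 gene segments of antigen receptors that were read in mouse cerebral cortex. They are the T cell receptor beta constant genes Trbc1 and Trbc2, the beta joining segments Trbj1-4, Trbj1-7, Trbj2-1 and Trbj2-4, and Ighm, the constant gene of the immunoglobulin mu heavy chain. They were picked by name, 7 of 55487 genes in the table of gene levels, with the difference between the genotypes already known. Their genotype differences are therefore given as a description, with no test. All 7 reached 0.5 TPM (a level per transcript length, scaled to a total of 1000000 in each library), on average over the 10 libraries, the minimum used for tests. Trbj1-7 reached that mean through the control group alone, so it had to differ.

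In the thymus, a beta chain gene is assembled by joining 1 variable, 1 diversity and 1 joining segment, and the joined exon is then spliced to the first exon of Trbc1 or Trbc2. Each constant gene has its own cluster of joining segments directly before it, Trbj1 before Trbc1 and Trbj2 before Trbc2. The immunoglobulin heavy chain locus is built the same way in B cells, and Ighm is the first constant gene after its joining segments. RNA that holds constant or joining segments without a variable segment, called a germline or sterile transcript, is made from unrearranged loci. Germline transcripts of the T cell receptor beta locus have been described in neurons of the mouse brain.

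Bulk RNA was read from cortex of 18-day-old mice, from 5 animals called Usp7 cKO and 5 called Usp7 WT, all heterozygous for Trp53 (Trp53+/-). The animals formed 5 pairs matched for litter and sex, per the labels, which do not say which libraries make up a pair. Usp7 encodes a deubiquitinase, and Usp7 fl/fl mice carried NEX-cre, a Cre expressed from the Neurod6 locus in forebrain glutamatergic neurons. Other cells of the cortex keep the gene, and whether Usp7 WT animals carry Cre is not given in the sources used here. The targeted gene measured 48.3 to 61.9 TPM over the Usp7 WT libraries and 31.6 to 40.9 TPM over the Usp7 cKO libraries. The cortical glutamatergic marker Slc17a7 had a mean of 1429 ± 55.6 TPM in the first group and 1091 ± 55.1 TPM in the other (SD, n = 5). Exon bin counts summed to between 42628526 and 51797145 reads per library and counts of spliced reads to between 3388310 and 4367711. The library labelled Usp7 WT replicate 2 is female in the labels but had 0.0478 TPM of the female-specific Xist and 22.8 TPM of the Y-linked Ddx3y, and the library labelled Usp7 cKO replicate 1 is male but had 116 and 0.0523 TPM of these. Xist was high in replicates 1 and 5 of Usp7 WT and in replicates 1, 2, 3 and 5 of Usp7 cKO. By these transcripts the genotypes were not balanced for sex, while the main model uses sex as labelled. Library identifiers run in genotype order, so library order and genotype cannot be told apart.

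The joining segments are about as long as 1 sequencing read, and their sequences show what was measured. Those of the 4 segments described, and of the pair for which spliced reads were listed, are given from GENCODE transcripts on GRCm38, plus strand of chromosome 6. Capitals mark TTNGGNNNNGGN, a pattern that spells the codons of phenylalanine, glycine, any residue and glycine, the hallmark of a joining segment.
Trbj1-4: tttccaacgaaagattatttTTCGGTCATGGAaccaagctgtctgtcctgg
Trbj1-7: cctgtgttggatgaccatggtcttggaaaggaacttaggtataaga
Trbj2-1: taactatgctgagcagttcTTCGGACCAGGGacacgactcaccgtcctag
Trbj2-3: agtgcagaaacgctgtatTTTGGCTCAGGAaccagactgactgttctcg
Trbj2-4: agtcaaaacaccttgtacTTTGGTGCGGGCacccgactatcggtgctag
Trbj2-7: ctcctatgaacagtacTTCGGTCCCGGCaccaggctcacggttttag

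Of the 14 beta joining segments searched on both strands, 11 held the pattern on the sense strand and 0 on the other strand. Trbj1-6, Trbj1-7 and Trbj2-6 did not hold these letters. The same pattern lies, on either strand, in 2.06% of the first 50 bases of 141672 GENCODE transcripts. Trbj1-4 lies at chr6:41534811-41534861, Trbj1-7 at chr6:41535642-41535687, Trbj2-1 at chr6:41542754-41542803 and Trbj2-4 at chr6:41543362-41543410.

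Both beta constant genes are near-identical copies, which limits how reads can be assigned. Trbc1 lies at chr6:41538218-41539881 and Trbc2 at chr6:41546730-41548352. Their first exons, 375 bases each, differ at 1 base, C260A from Trbc1 to Trbc2 with positions counted from the first base of the exon, and are 99.7% identical. Over exons 1 to 3 the identity is 96.2%. The 60 bases around the difference, which is in capitals, are chr6:41538448-41538507 in Trbc1 and chr6:41546960-41547019 in Trbc2.
Trbc1: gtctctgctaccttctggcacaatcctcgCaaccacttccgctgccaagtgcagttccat
Trbc2: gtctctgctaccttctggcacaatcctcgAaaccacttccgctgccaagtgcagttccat

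How the authors counted reads that match both copies is not given in the sources used here. The split of level between Trbc1 and Trbc2 is therefore uncertain, and their sum is firmer than either.

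Constant genes of both loci were lower in every Usp7 cKO library than in any Usp7 WT library. Trbc2 was the highest of the 7 transcripts. It measured 58.1, 55.8, 58.1, 35.7 and 57.7 TPM in Usp7 WT replicates 1 to 5 and 20.03, 16.8, 23.4, 17.6 and 20.7 TPM in Usp7 cKO replicates 1 to 5. Usp7 WT replicate 4 was the lowest of its group and still lay above all Usp7 cKO libraries. The means were 53.1 ± 9.76 and 19.7 ± 2.65 TPM (SD, n = 5), a log2 change of -1.39 (SE 0.133) on the log2(TPM + 0.5) scale, Usp7 cKO minus Usp7 WT with labelled sex in the model. A smaller number of cells that make a transcript and less of it per cell cannot be told apart in bulk tissue.

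Trbc1 was about an order of magnitude below Trbc2 in level per length. Its values were 4.75, 4.89, 4.24, 2.63 and 3.39 TPM in Usp7 WT and 1.27, 1.11, 1.46, 1.01 and 0.868 TPM in Usp7 cKO. The groups did not overlap, and Usp7 WT replicate 4 was again the lowest of its group. The means were 3.98 ± 0.957 and 1.14 ± 0.230 TPM, and the log2 change was -1.43 (SE 0.178). On bin counts it was -2.43 in edgeR and -2.51 in DESeq2, where Trbc2 had -1.51 and -1.52.

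Ighm (chr12:113418558-113422730, minus strand, GRCm38) encodes the constant region of IgM. It measured 16.6, 22.3, 23.9, 12.9 and 17.4 TPM in Usp7 WT and 5.69, 6.22, 7.50, 5.33 and 5.86 TPM in Usp7 cKO. Here too the groups did not overlap, and replicate 4 was the lowest library of both groups. The means were 18.6 ± 4.45 and 6.12 ± 0.836 TPM, with a log2 change of -1.50 (SE 0.158).

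Joining segments were also lower, with few reads in most of their exon bins. Trbj2-1, the first segment of the second cluster, measured 26.2, 29.8, 17.8, 24.8 and 25.4 TPM in Usp7 WT and 1.36, 10.2, 8.20, 4.32 and 4.73 TPM in Usp7 cKO. Its groups did not overlap, and Usp7 cKO replicate 1, a library of discordant sex, was the lowest. The means were 24.8 ± 4.37 and 5.76 ± 3.47 TPM, a log2 change of -2.22 (SE 0.312).

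Trbj2-4 measured 6.37, 4.67, 3.88, 13.8 and 1.44 TPM in Usp7 WT and 0, 0, 1.39, 0 and 2.41 TPM in Usp7 cKO, with a log2 change of -2.52 (SE 0.662). Usp7 WT replicate 5 fell below Usp7 cKO replicate 5, so the groups overlapped, and Usp7 WT replicate 4 was here the highest library. Trbj1-4 measured 9.80, 2.24, 9.95, 9.94 and 5.52 TPM in Usp7 WT and 0, 0, 0, 4.24 and 2.32 TPM in Usp7 cKO, with a log2 change of -2.69 (SE 0.688). Usp7 WT replicate 2 lay below Usp7 cKO replicates 4 and 5, so these groups overlapped as well. In that library the exon bin of Trbj1-4 held 1 read. Levels in TPM do not follow bin reads exactly. Trbj2-4 had TPM above 0 with 0 bin reads in Usp7 WT replicate 5 and Usp7 cKO replicate 3.

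Trbj1-7 was listed at 5.43, 4.98, 0, 0 and 3.06 TPM in Usp7 WT and at 0 in all 5 Usp7 cKO libraries. Its bin held 5 reads over the Usp7 WT group and 0 over Usp7 cKO. No fold is given for these counts, since the 5 reads carry counting error too. Zeros in both genotypes left the groups overlapping.

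In Usp7 WT the 7 levels ran in the order Trbc2, Trbj2-1, Ighm, Trbj1-4, Trbj2-4, Trbc1 and Trbj1-7. Trbj2-1 and Ighm overlapped in their libraries, and so did the last 4 with each other. In all, 4 of the 7 transcripts (Trbc1, Trbc2, Trbj2-1 and Ighm) had every Usp7 cKO library below every Usp7 WT library. Such a separation was found in 4.58% of the 27580 genes tested. Because the transcripts were chosen on this contrast, nothing is read from that share.

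**Figure D1:**
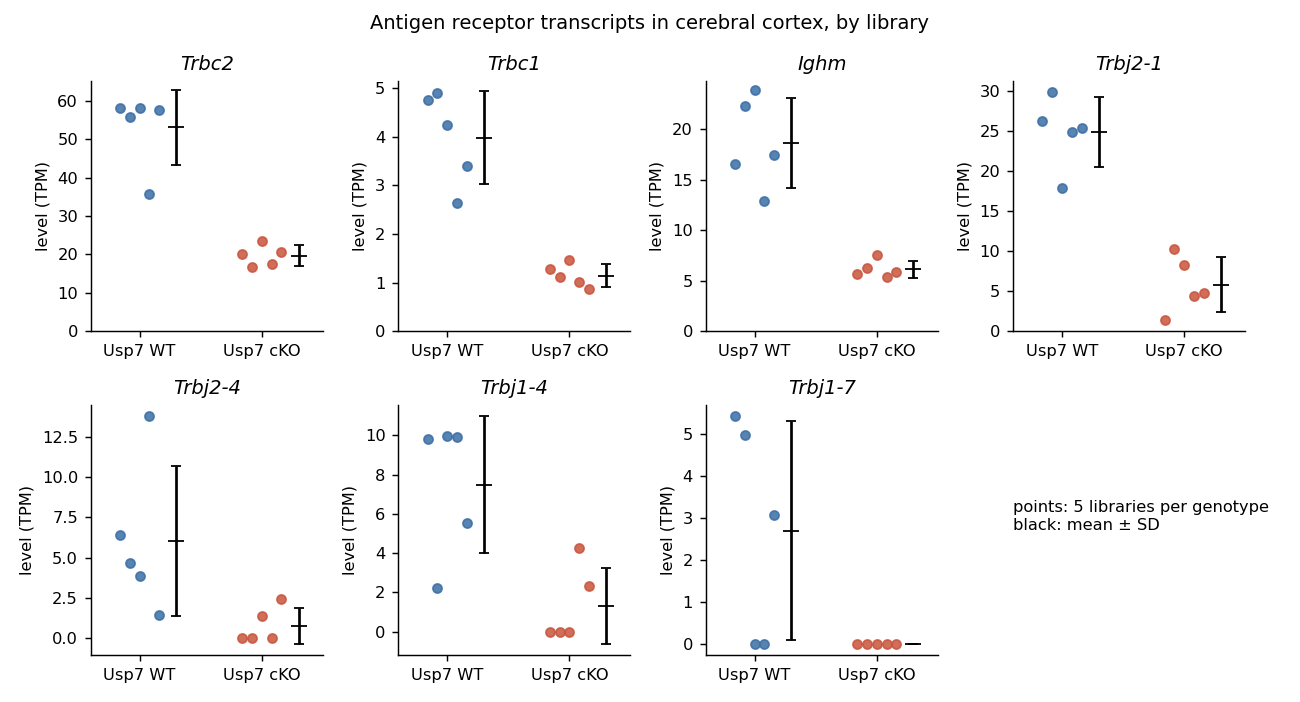
Level in TPM of the 7 transcripts in each library (points) of Usp7 WT and Usp7 cKO, with mean ± SD in black and an own linear axis per panel. The groups separate for Trbc2, Trbc1, Ighm and Trbj2-1 and overlap for Trbj2-4, Trbj1-4 and Trbj1-7.

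The lower levels of constant and joining segments were compared in read counts of the deposited exon bins. Bins of Trbj2-3 and Trbj2-7 missed most of their reads spliced to Trbc2 (below). Reads of joining and constant segments may therefore not be counted alike, which limits this comparison. Reads in Trbc2 exon 1 numbered 178, 163, 153, 120 and 180 in Usp7 WT and 43, 56, 67, 66 and 64 in Usp7 cKO. The pooled ratio of Usp7 cKO to Usp7 WT, scaled to the bin reads of each library, was 0.390 (exact 95% interval 0.340 to 0.446). Intervals here cover counting error only, not the spread between animals.

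The 7 segments of the Trbj2 cluster together held 38, 33, 29, 34 and 32 reads in Usp7 WT and 6, 18, 17, 3 and 14 in Usp7 cKO. Their pooled ratio was 0.365 (0.266 to 0.496), an interval that holds the ratio of Trbc2 exon 1. The 7 segments of the Trbj1 cluster held 52 reads in Usp7 WT and 17 in Usp7 cKO, a ratio of 0.342 (0.185 to 0.601). That interval holds the ratio of Trbc2 exon 1 too, but each cluster includes segments chosen on this contrast, and bins hold only part of the spliced reads. For every 100 reads in Trbc2 exon 1, the Trbj2 segments held 21.3 ± 4.14 reads in Usp7 WT and 19.6 ± 10.7 in Usp7 cKO (SD, n = 5), a difference smaller than the spread between libraries.

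Ratios of single segments spread widely, with wide counting intervals, and differences between segments were not tested. The 4 joining segments described here, pooled, held 81 reads in Usp7 WT and 15 in Usp7 cKO, a ratio of 0.194 (0.104 to 0.339), but they had been chosen with this contrast in view. The 5 other Trbj2 segments held 105 and 46 reads, a ratio of 0.458 (0.317 to 0.654), and the 5 other Trbj1 segments 32 and 14, also 0.458 (0.226 to 0.882). Both intervals hold the ratio of Trbc2 exon 1. Trbj2-3 held 34 and 20 reads, a ratio of 0.615 with an interval from 0.336 to above 1, and Trbj2-6 held 20 and 4, a ratio of 0.209 (0.0520 to 0.625). Trbj1-3, with 5 and 6 reads, was the sole joining segment with more reads in Usp7 cKO.

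**Figure D2:**
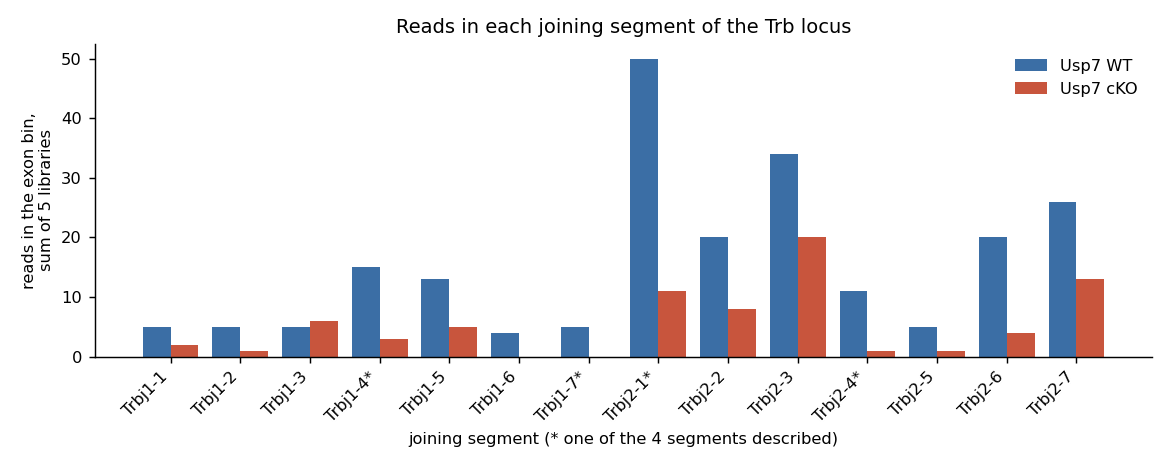
Reads in the exon bin of each beta joining segment, summed over the 5 libraries of each genotype, on a linear axis from 0. Asterisks mark the 4 segments described in full, and Trbj2-1 holds the most reads in Usp7 WT, 50 against 11 in Usp7 cKO.

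The diversity segments before each cluster held few reads. Trbd1 and Trbd2 together held 16 reads in Usp7 WT and 7 in Usp7 cKO, a ratio of 0.458 (0.159 to 1.18). In TPM, Trbd1 had a log2 change of -3.33 (SE 1.24) that did not pass the test over all genes (limma adjusted p = 0.112).

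Within Trbc2 the 4 exon bins had like ratios. They ran from 0.348 for exon 2 to 0.390 for exon 1. The authors' deposited table gives log2 changes of exon usage between -0.09 and 0.07 for the 4 bins. In Trbc1, exon 1 held 18 reads in Usp7 WT and 5 in Usp7 cKO, a ratio of 0.291 (0.0843 to 0.812), and exon 3 held 22 and 2 reads. The authors' deposited table gives log2 changes of exon usage from -1.48 to 1.93 for the Trbc1 bins, which hold few reads. Exon 1 of Trbc1 thus held 2.26 ± 1.65 reads per 100 in exon 1 of Trbc2 in Usp7 WT, the exon in which the copies differ at 1 base.

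Spliced reads show joining segments used as exons. The deposited intron counts list a pair of introns that end at the first base of Trbc2, from Trbj2-3 (3458 bases) and from Trbj2-7 (2873 bases). The joined sequences, 25 bases on each side with Trbc2 in capitals, run from chr6:41543271 or chr6:41543856 to chr6:41546730.
Trbj2-3 to Trbc2: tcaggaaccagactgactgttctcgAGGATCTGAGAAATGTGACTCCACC
Trbj2-7 to Trbc2: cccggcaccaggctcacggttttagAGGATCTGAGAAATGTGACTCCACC

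Reads that joined Trbj2-3 to Trbc2 numbered 62, 46, 64, 42 and 55 in Usp7 WT and 34, 31, 30, 24 and 19 in Usp7 cKO. Counts of Usp7 WT replicate 1 were halved, since all its deposited intron counts were even. Per 1000000 intron reads these were 12.9 ± 2.49 and 7.29 ± 2.04, a log2 ratio of -0.82. Usp7 cKO replicate 1 lay above the lowest Usp7 WT library, and the other 4 lay below all of them.

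Reads that joined Trbj2-7 to Trbc2 numbered 21, 24, 27, 20 and 16 in Usp7 WT and 7, 8, 5, 0 and 6 in Usp7 cKO. Per 1000000 intron reads these were 5.14 ± 0.803 and 1.40 ± 0.856, a log2 ratio of -1.87, and the groups did not overlap. Of both junctions together, Trbj2-3 took 71.2 ± 4.86% in Usp7 WT and 84.8 ± 9.23% in Usp7 cKO (SD, n = 5). Usp7 cKO replicate 5, at 76.0%, lay within the Usp7 WT range of 65.7 to 77.5%, and Usp7 cKO replicate 4 stood at 100% because it held 0 reads of Trbj2-7. Both junctions together had 18.1 ± 2.72 spliced reads per 1000000 intron reads in the controls and 8.70 ± 2.66 in the knockouts. Pooled over libraries the ratio was 0.474 (exact 95% interval 0.392 to 0.571) for both, 0.559 (0.452 to 0.689) for Trbj2-3 and 0.262 (0.164 to 0.406) for Trbj2-7. The Trbj2-3 interval lies above the 0.390 of Trbc2 exon 1, and that difference was not tested over libraries. In TPM, neither segment passed in limma, with log2 changes of -1.58 for Trbj2-3 (adjusted p = 0.213) and -1.55 for Trbj2-7 (adjusted p = 0.164).

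**Figure D3:**
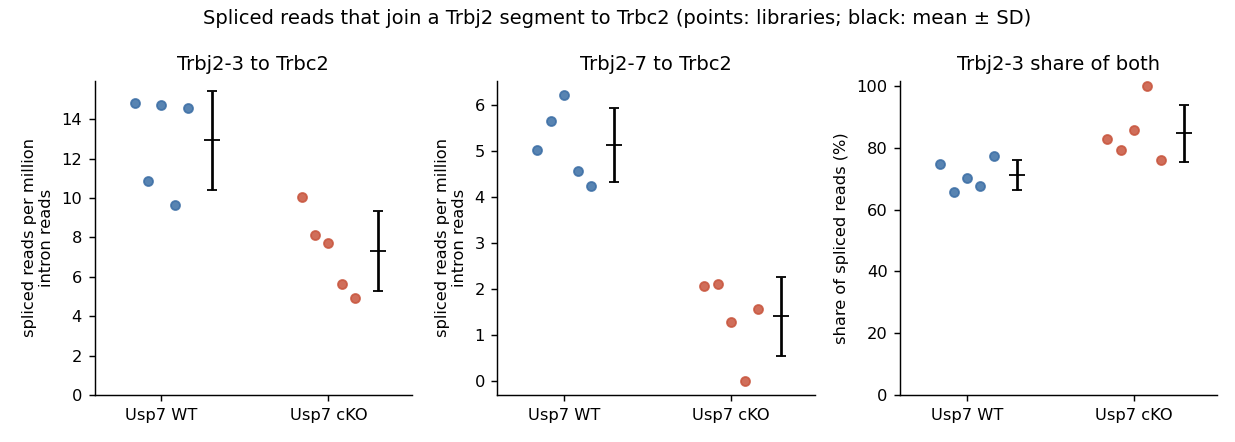
Spliced reads per 1000000 intron reads that join Trbj2-3 (left) and Trbj2-7 (middle) to Trbc2, and the percentage of both that comes from Trbj2-3 (right), in each library (points) with mean ± SD in black. Trbj2-7 reads separate the genotypes, and Trbj2-3 reads overlap in 1 Usp7 cKO library.

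The bins miss most of these spliced reads. Trbj2-3 had 269 spliced reads to Trbc2 over the Usp7 WT group but 34 reads in its own bin, and Trbj2-7 had 108 and 26. How reads that overlap more than 1 gene were counted is not given in the sources used here, so bin counts of joining segments do not hold all of their reads. No intron of the deposited table touched Trbc1, and 0 lay inside the immunoglobulin heavy chain locus.

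Variable segments of the beta and heavy chain loci, which rearranged RNA of these loci would hold, were hardly read. Of 35 Trbv genes in the table, 0 reached a mean of 0.5 TPM and 28 were at 0 in all libraries. Their levels summed to between 0.146 and 1.14 TPM per library. Of 185 Ighv genes, again 0 reached that mean, and they summed to between 0 and 0.686 TPM.

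Ighm is made in a secreted and a membrane-bound form. The secreted form reads on from the fourth constant exon (CH4) into a short tail, and the membrane form splices from CH4 to a pair of membrane exons. The last 30 bases shared by both forms are in lower case and what follows them is in capitals, on the minus strand of GRCm38. The capitals lie at chr12:113420870-113420928 for the secreted tail and chr12:113419010-113419068 for the start of the first membrane exon.
Ighm secreted: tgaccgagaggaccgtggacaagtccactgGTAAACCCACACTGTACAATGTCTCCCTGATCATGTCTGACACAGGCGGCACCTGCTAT
Ighm membrane: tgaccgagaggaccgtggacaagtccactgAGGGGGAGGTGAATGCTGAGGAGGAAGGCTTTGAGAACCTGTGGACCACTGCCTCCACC

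Both forms had reads in both genotypes. The 4 constant exons held 327, 471, 466, 277 and 289 reads in Usp7 WT and 103, 120, 133, 114 and 116 in Usp7 cKO, a pooled ratio of 0.335 (0.305 to 0.368). The secreted tail held 63 and 20 reads, a ratio of 0.332 (0.190 to 0.557). The membrane exons held 190 and 66 reads, a ratio of 0.363 (0.270 to 0.483).

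The balance of the forms did not differ beyond the spread. For every 100 reads in CH2, membrane exon 1 held 17.6 ± 2.22 in Usp7 WT and 21.8 ± 8.02 in Usp7 cKO. The secreted tail held 9.999 ± 2.31 and 10.4 ± 4.21 per 100 CH2 reads. The authors' deposited table gives log2 changes of exon usage between -0.07 and 0.21 for the 7 Ighm bins. The 4 joining segments of the heavy chain held 13 reads in Usp7 WT and 9 in Usp7 cKO, a ratio of 0.724 (0.273 to 1.83). That interval holds the ratio of the Ighm constant exons, so joining and constant segments of this locus could not be told apart at this depth.

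**Figure D4:**
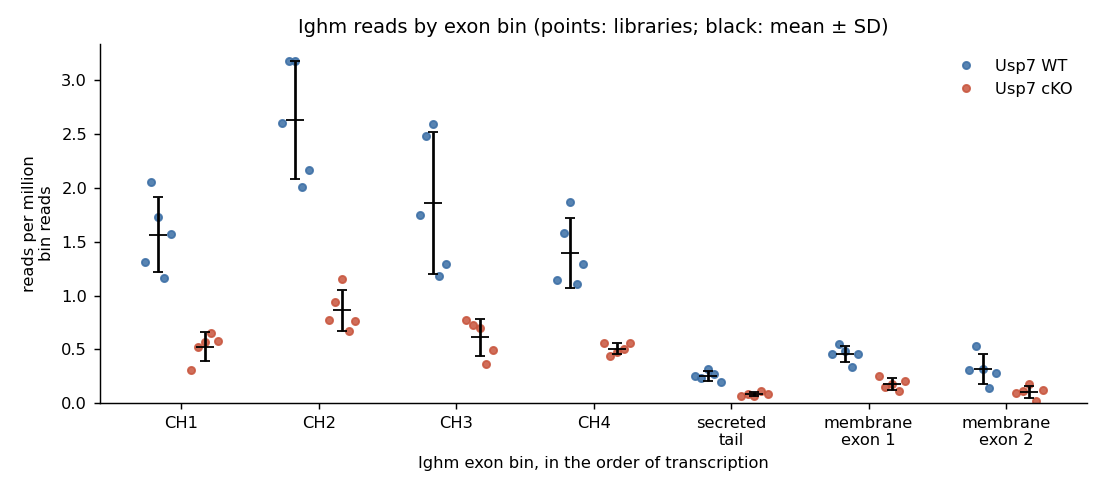
CPM (reads per 1000000 bin reads) in each Ighm exon bin, in the order of transcription, for each library (points) with mean ± SD in black. Every bin is lower in Usp7 cKO on average, the secreted tail and both membrane exons included.

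Other antigen receptor segments numbered 689, of which 488 were at 0 in all libraries and 54 passed the minimum mean. Of those 54, 4 fell and 0 rose (limma on log2(TPM + 0.5), Benjamini-Hochberg adjusted p below 0.05), where 4.67% of all genes tested fell and 9.22% rose. Of those 4, Trbj1-6 and Ighj2 reached the minimum mean through the Usp7 WT group alone, which fixed their direction. Their calls therefore support nothing. Over all 54, chosen by the same minimum, the median log2 change was -0.40, against 0.06 for all genes tested. Segments of the T cell receptor beta locus had a median of -1.57 over 12 tested, those of the heavy chain locus -0.64 over 7 and those of the alpha locus -0.14 over 33. Of the 12 beta segments 2 were called lower, Trbj1-6 among them, of the 7 heavy chain segments 2, Ighj2 among them, and of the 33 alpha segments 0 passed.

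The constant gene Ighg2c, of the IgG2c heavy chain, fell from 4.17 ± 0.778 to 1.47 ± 0.395 TPM (log2 change -1.25, SE 0.132, limma adjusted p = 0.000214). Trbj2-2 fell from 10.5 ± 3.37 to 3.96 ± 1.46 TPM (log2 change -1.32, limma adjusted p = 0.0136), a call lost in edgeR on bin counts and without both libraries of discordant sex (adjusted p up to 0.112). Trbj1-6 stood at 1.99 ± 1.57 TPM in Usp7 WT and at 0 in all Usp7 cKO libraries, and the heavy chain joining segment Ighj2 at 1.11 ± 0.290 and 0.236 ± 0.528 TPM. The exon bins of Trbj1-6 and Ighj2 held 4 and 5 reads in Usp7 WT, and both segments lost the call in edgeR on bin counts. Trbj1-6 also lost it when replicate 1, 2 or 4 of Usp7 WT or replicate 1, 4 or 5 of Usp7 cKO was left out (log2 changes of -2.48 to -1.68 over all replicates left out, adjusted p up to 0.136 over all alternatives). Ighj2 lost it without any one replicate other than Usp7 WT replicate 3 and Usp7 cKO replicate 5 (-1.65 to -1.17, adjusted p up to 0.107).

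Not every receptor segment with a level above the minimum passed the test. The kappa variable segment Igkv14-134-1 had a level of 52.1 ± 11.7 TPM against 49.6 ± 13.8 TPM (log2 change -0.09, SE 0.201, limma adjusted p = 0.822). The alpha constant gene Trac had 1.003 ± 0.347 and 0.640 ± 0.230 TPM (log2 change -0.39, adjusted p = 0.269).

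Of the 10 genes nearest the beta locus, 2 fell and 0 rose in limma, where 4.67% of all genes tested fell and 9.22% rose. Both fallers lie on the Trbc2 side. EdgeR and DESeq2 each called 3 of the 9 they tested. The nearest genes tested beyond Trbc2 were Ephb6, a receptor of ephrin ligands, at chr6:41605482-41620509, and Trpv6, a calcium channel, at chr6:41620624-41636405. Ephb6 fell from 234 ± 19.2 to 186 ± 12.8 TPM (log2 change -0.33, SE 0.0566, limma adjusted p = 0.00382). Trpv6 fell from 17.04 ± 2.02 to 9.26 ± 1.55 TPM (log2 change -0.85, SE 0.110, adjusted p = 0.000744). The next 3 genes on that side and the 5 nearest genes on the other side did not pass in limma, with log2 changes of -0.10 to 0.24.

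Inside the locus lie genes that are no receptor segments, and of 5 tested there 2 fell, where 4.67% of all genes tested fell. Prss2, a trypsinogen gene at chr6:41521787-41525079, fell from 2.87 ± 1.19 to 0.777 ± 0.357 TPM (log2 change -1.38, SE 0.247, limma adjusted p = 0.00488). Gm10334 fell from 1.72 ± 0.874 to 0.620 ± 0.209 TPM (log2 change -0.92, adjusted p = 0.0462), and lost the call when any one replicate other than Usp7 WT replicate 5 was left out (log2 changes of -1.13 to -0.73, adjusted p up to 0.152 over all alternatives).

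Of the 10 genes nearest the heavy chain locus, 1 rose and 0 fell in limma, with 5 at an unadjusted p below 0.05. That share is near the 9.22% of all genes that rose. With rescaled TPM, edgeR or DESeq2, 1 of them was called lower, and edgeR and DESeq2 called 2 of the 8 they tested higher. The riser in limma was Vipr2, a receptor of vasoactive intestinal peptide (0.664 ± 0.0692 to 1.67 ± 0.164 TPM, log2 change 0.90, limma adjusted p = 0.00131). Of 7 other genes inside that locus 0 passed in limma, 1 had an unadjusted p below 0.05, and edgeR and DESeq2 called 0 of the 5 they tested. Median log2 changes were -0.05 for the 10 neighbours of the beta locus and 0.17 for those of the heavy chain locus, and -0.77 and 0.08 for the other genes inside them. The -0.77 is the value of Gm38018 (0.818 TPM in Usp7 WT, 0.296 TPM in Usp7 cKO). Gm38018 and Gm37301 (0.814 and 0.325 TPM) reached the minimum mean through the Usp7 WT group alone, which favoured their direction. Nothing is read from that median.

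**Figure D5:**
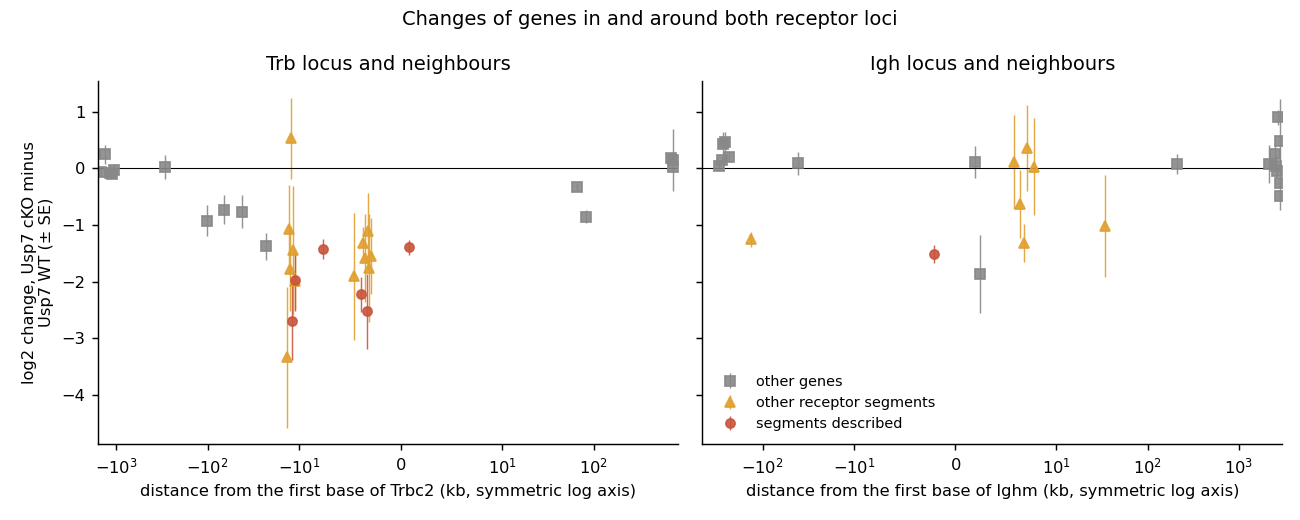
Log2 change (± SE) of each tested gene in and around the T cell receptor beta locus (left) and the heavy chain locus (right) against distance along the chromosome from the first base of Trbc2 or Ighm, on a symmetric log axis. Below 0 lie 11 of 12 other segments and 10 of 15 other genes in the left panel, and 4 of 7 other segments and 4 of 17 other genes in the right.

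Several transcripts that define T and B cells were near 0, and Cd4 was not. Cd3d was at 0 in all Usp7 WT libraries and reached at most 0.113 TPM. Cd3g, Cd3e and Cd247, further chains of the T cell receptor complex, stayed at or below 0.397, 0.490 and 0.688 TPM. The B cell transcript Ms4a1 stayed at or below 0.0182 TPM, and the kappa constant gene Igkc at or below 1.28 TPM. Cd4, the coreceptor of helper T cells, ranged from 0.780 to 9.38 TPM over the libraries, with 2.24 ± 0.923 TPM in Usp7 WT against 5.08 ± 3.34 TPM (log2 change 0.79, SE 0.501, limma adjusted p = 0.345). Rag1 and Rag2, which cut receptor loci for rearrangement, stayed at or below 0.222 and 0.104 TPM.

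Of 28 T cell genes listed 10 passed the minimum mean, and 3 rose and 0 fell, with a median log2 change of 0.33. Among all genes tested 9.22% rose and 4.67% fell. The list summed to 15.9 to 25.7 TPM per library in Usp7 WT and 22.5 to 33.0 TPM in Usp7 cKO, ranges that overlapped. The part of T cells in the receptor transcripts was not tested. The kinase Lck rose from 1.83 ± 0.345 to 3.11 ± 0.460 TPM (log2 change 0.64, limma adjusted p = 0.00831). Tcf7, a transcription factor, rose from 3.68 ± 0.548 to 5.99 ± 1.60 TPM (0.61, adjusted p = 0.0205), and the kinase Zap70 from 1.75 ± 0.525 to 3.30 ± 1.07 TPM (0.74, adjusted p = 0.0394). All 3 calls were lost without both libraries of discordant sex. Tcf7 also lost its call without Usp7 WT replicate 1, 2 or 3 (0.50 to 0.70 over all replicates left out, adjusted p up to 0.0890 over all alternatives), and Zap70 without any one replicate other than Usp7 WT replicate 5 and Usp7 cKO replicates 2 and 3 (0.60 to 0.86, adjusted p up to 0.134).

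Of 28 B cell genes 5 passed the minimum mean. In limma 2 fell and 0 rose, where 4.67% of all genes tested fell and 9.22% rose. EdgeR and DESeq2 each called 1 higher, and the median log2 change in limma was 0.22. The fallers are Ighg2c, above, and Blnk, an adaptor of B cell receptor signalling that microglia also express, which fell from 3.45 ± 0.374 to 1.46 ± 0.440 TPM (log2 change -1.03, limma adjusted p = 0.00224). The list summed to 12.0 to 13.3 TPM in Usp7 WT and 9.20 to 10.5 TPM in Usp7 cKO. That sum includes both fallers, and Ighg2c is itself a receptor segment. The other 3 genes tested did not pass in limma and had log2 changes above 0 (Fcer2a 0.40, Cd79b 0.37 and Cr2 0.22). Of 7 blood cell genes tested (median log2 change 0.10) 0 passed in limma, edgeR or DESeq2, with 0 at an unadjusted p below 0.05 in limma and 1 in each of the others, and haemoglobin Hbb-bs stood at 243 ± 27.9 and 270 ± 21.3 TPM.

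Other cell types of the tissue moved between the genotypes too. Of 20 microglia genes 15 fell and 0 rose (median log2 change -0.48), where 4.67% of all genes tested fell and 9.22% rose. Their levels summed to 537 to 617 TPM in Usp7 WT and 383 to 429 TPM in Usp7 cKO. Among them Csf1r, the growth factor receptor of microglia, fell from 60.1 ± 1.75 to 42.5 ± 3.23 TPM (log2 change -0.50, limma adjusted p = 0.000179) and Tmem119 from 26.9 ± 2.95 to 16.3 ± 0.924 TPM (-0.70, adjusted p = 0.000357). The part of microglia in the lower receptor transcripts was not tested.

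Of 23 genes of deep layer glutamatergic neurons 8 fell and 2 rose, and of 20 upper layer genes 6 fell and 4 rose. Among 12 thalamus genes 3 rose and 0 fell (median log2 change 0.17). Across all genes tested 4.67% fell and 9.22% rose. The median log2 change was -0.25 for deep layer and -0.15 for upper layer genes, against -1.39 for Trbc2 and -1.50 for Ighm. Cplx3 and Ccn2, which mark layer 6b, fell from 22.7 ± 3.17 to 7.50 ± 0.956 TPM (-1.53) and from 31.1 ± 1.52 to 17.2 ± 2.33 TPM (-0.85). Ntsr1, of corticothalamic neurons, rose from 13.6 ± 0.685 to 28.0 ± 4.31 TPM. Tbr1, also on the deep layer list, fell from 130 ± 12.7 to 86.4 ± 4.57 TPM (-0.59, limma adjusted p = 0.000466). On the same list Rprm (-0.22) and Hs3st4 (-0.19) did not pass, nor did Crym (0.18). The thalamus gene Cbln1 rose from 17.2 ± 0.896 to 35.7 ± 1.66 TPM. The part of any neuronal layer, or of thalamic tissue, in the receptor transcripts was not tested. Without both libraries of discordant sex, 4 deep layer genes fell and 1 rose, and 5 fell when replicate 2 or 3 of Usp7 WT, or replicate 2 or 4 of Usp7 cKO, was left out.

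Among 17 tested transcription factors that act on receptor genes in lymphocytes, 2 fell and 1 rose, with a median log2 change of 0.04. Over all genes tested 4.67% fell and 9.22% rose, and counts this small cannot be set apart from that background. Mef2c, which cortical neurons also express, fell from 188 ± 8.05 to 141 ± 12.7 TPM (log2 change -0.42, limma adjusted p = 0.00206). Ikzf1 fell from 3.07 ± 0.294 to 2.21 ± 0.185 TPM (-0.40, adjusted p = 0.0484), a call lost when any one replicate was left out (-0.44 to -0.35, adjusted p up to 0.130 over all alternatives). Tcf3 rose from 27.5 ± 2.57 to 34.8 ± 5.62 TPM (0.32, adjusted p = 0.0294), a call lost when replicate 1, 2 or 4 of Usp7 WT or replicate 1 or 5 of Usp7 cKO was left out (0.26 to 0.37, adjusted p up to 0.170).

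Labelled sex played no part in choosing the transcripts, and 2 libraries go against their label, so the comparison tests the labels. Between 4 animals labelled male and 6 labelled female 0 of the 7 differed (limma, adjusted p of 0.582 to 0.939), where 0% of the 27580 genes passed (2287 at an unadjusted p below 0.05). By edgeR 1 gene passed and by DESeq2 122. Trbj1-7 and Trbj2-1 had an unadjusted p below 0.05, edgeR and DESeq2 called 0 of the 7, and their unadjusted p was below 0.05 for 2 and 1 of the 7. The log2 difference, male minus female, was -0.21 (SE 0.136) for Trbc2 and -0.15 (SE 0.161) for Ighm. Without both libraries of discordant sex 10 of 27667 genes and 0 of the 7 passed, which does not show that the sexes were alike, and the genotype changes were -1.45 for Trbc2, -1.43 for Trbc1, -1.43 for Ighm and -1.89 for Trbj2-1.

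The genes whose levels varied most like those of Trbc2 and Ighm within a genotype were sought. Levels were centred within genotype and scaled to an SD of 1, and the mean absolute difference over the 10 libraries was taken to 24245 other genes that averaged 1 TPM or more, where the median gene lay at 0.89 from Trbc2. Tmem208, Tstd2 and Osgep were most like Trbc2, at 0.18 each, and had like levels in both genotypes. Trbc1 took place 2194 in that order and Trbj2-4, Trbj2-1 and Trbj1-4 took places 15052, 16966 and 21454. Trbj1-7, at 0 in all Usp7 cKO libraries, has no spread there and is left out. For Ighm, the genes most like it were Ubl5, Glb1 and Snap25, at 0.15, 0.21 and 0.22, and Trbc1 took place 788 and Trbc2 place 1695. With few reads in each joining segment, counting error enters these places, and its part was not tested.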

How the data were processed

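Total RNA of 10 cortices was freed of ribosomal RNA by RNase H and reverse transcribed from random primers, per the labels' protocols. Gene levels are TPM as deposited by the authors; 287 repeated lines were counted 1 time. Exon bin and intron values are raw read counts, per the file headers, and the bin table's log2 changes of exon usage are the authors' own, per the file headers. Tools named in the submitters' processing notes are SAMtools 1.10, STAR 2.7.9a, Subread and featureCounts, with build GRCm38. For the counting strand and the handling of reads that match several places, the method is not given in the sources used.

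From these files, limma 3.58.1 (R 4.3.3) was fitted to log2(TPM + 0.5) where the mean reached 0.5 TPM, with genotype and labelled sex, trend and robust empirical Bayes, and Benjamini-Hochberg adjustment at 0.05 (two-sided). This scale understates changes of low genes. For the J segments the widest bin was used. A read that spans several bins of a gene can count in each. Ratios of pooled counts are scaled to library bin totals with exact binomial intervals. Positions, symbols and sequences come from GENCODE vM21 (55227 identifiers matched). RefSeq promoter sequences matched 0 of the 7 transcripts.

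The transcripts, gene lists and tests were chosen with earlier results of these data known. Genes named are the 7 transcripts, up to 4 passing genes per list by smallest p and up to 3 others by highest level, the 5 nearest tested genes on each side of a locus, and the 3 genes most like Trbc2 and Ighm; some were left out for length. Alternatives were other pseudocounts (0.1 and 1), other filters, other covariates, TPM scaled anew by medians of ratios, a replicate block, edgeR 4.0.16 and DESeq2 1.42.0 on bin counts summed per gene, size factors for bins, and each library left out. The tests were tried on simulated data. Other software was Python 3.11.15, scipy 1.17.1 and matplotlib 3.10.9.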

Additional observations from a re-analysis of the deposited data

Results flagged for a closer look

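A single value stood far from its group. Trbc2 in Usp7 WT replicate 4 was 35.7 TPM, the lowest of 5 libraries, while the next lowest was 55.8 TPM. It was the single such value in 43 sets of 5 libraries, and chance alone marks about 1 set in 20. The same library was the lowest of its group for Trbc1 and Ighm and the highest for Trbj2-4. Without it the log2 change of Trbc2 was -1.52 and that of Ighm -1.63.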

How the results depend on the processing

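All 7 log2 changes stayed below 0 under each of 21 alternatives. Of these, 2 were chosen after the data were seen (without both libraries of discordant sex, and Xist as covariate). The other filters, the fit without sex and the block gave the same log2 changes as the main fit and could move only the calls. A filter does not enter a gene's log2 change, and labelled sex and block are balanced between the genotypes. The transcripts were chosen on this contrast, so the shared direction is no support. For Trbj1-7, at 0 in every Usp7 cKO library, the direction was fixed in advance. Trbc2 ran from -1.52 to -1.31, Ighm from -1.65 to -1.36 and Trbj2-1 from -2.40 to -1.89. With a pseudocount of 0.1, Trbj1-4 moved to -4.05, Trbj1-7 to -3.29 and Trbj2-4 to -3.88, since the pseudocount sets the value of zeros. On bin counts Trbc1 moved to -2.43 in edgeR and -2.51 in DESeq2, and Trbj1-7 to -4.10 in edgeR; the cause was not tested. Rescaled TPM moved the share of higher genes among all calls from 66.4 to 46.8% (5648 calls against 3832), Xist as covariate to 56.0%, edgeR to 50.5% (6361 calls) and DESeq2 to 47.3% (6496 calls). Without both libraries of discordant sex 2183 genes were called. With size factors in place of library totals, no read ratio of the bins moved beyond the spread between libraries.

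Counts of calls in gene lists moved more, and for each the cause was not tested. T cell genes higher numbered 3, but 1 with the Xist covariate, 0 without both discordant libraries and 1 to 3 with each library left out. B cell genes higher were 1 in edgeR and DESeq2. Blood cell genes higher were 1 with no filter and 0 to 2 with each library left out (2 without Usp7 WT replicate 4). Deep layer genes without both discordant libraries were 4 lower and 1 higher, and 5 to 8 lower and 1 to 2 higher with each library left out. Upper layer genes lower were 10 with rescaled TPM and 11 in DESeq2. Transcription factors lower were 1 with no filter, the block, the Xist covariate or without both discordant libraries, and 1 with any library left out. Transcription factors higher were 0 with no sex covariate, the Xist covariate or without both discordant libraries, 2 in edgeR, 3 in DESeq2 and 0 to 2 with each library left out. Other receptor segments lower were 2 at a mean of at least 1 TPM, 2 in edgeR, 1 in DESeq2, 1 without both discordant libraries (where 1 was higher) and 2 to 7 with each library left out, the lowest without Usp7 cKO replicate 1 and the highest without Usp7 WT replicate 3. Other genes inside the beta locus called lower were 1 with a pseudocount of 1, no filter or without both discordant libraries, and 1 to 2 with each library left out. Genes flanking the heavy chain locus called lower were 1 with rescaled TPM, edgeR and DESeq2 and 0 to 1 with each library left out. Those called higher were 2 with the block, edgeR and DESeq2 and 1 to 2 with each library left out. Other genes inside it called lower were 1 with the block.

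The labels speak of 5 pairs matched for litter and sex but do not tie libraries to pairs. With the last title number and labelled sex as a replicate block, 3654 genes were called. Correlations of same-block libraries ran from -0.02 to 0.09, which neither shows nor excludes that these blocks hold the pairs. Each block holds as many Usp7 WT as Usp7 cKO libraries, so it could not move the 7 log2 changes. Joining segments rest on few reads, so the depth limits statements on single segments.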
